A study of Mus musculus with 20 samples.

Results

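Nes and Bcan are neighbouring genes on mouse chromosome 3, and the data held the RNA of both and the chromosome contacts of both promoters in 10 RNA-seq and 10 5C libraries. The RNA rows were chosen by symbol, which gave 1 transcript model for each gene among 55419 models in the count files. The contacts were chosen by position, as all pairs of restriction fragments within a region in which 1 fragment overlapped the 20 kb around the Nes start (chr3:87765015-87785015, build mm9) or the Bcan start (chr3:87794278-87814278). This gave 101 pairs for Nes and 606 for Bcan, 3 of them shared, so that 704 of the 97243 possible within-region pairs belonged to either window.

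Nes encodes nestin, an intermediate filament protein of dividing neural stem and progenitor cells and the marker by which these cells are commonly recognised. Bcan encodes brevican, a chondroitin sulphate proteoglycan of the lectican family that is secreted into the matrix of the brain, where it binds hyaluronan and tenascins, and is made by glia and their progenitors. Chromosome contacts of a promoter are read in 5C (chromosome conformation capture carbon copy) by ligating DNA fragments that lie close together in the fixed nucleus and counting the ligated pairs with a set of primers, in which a forward (FOR) primer can pair only with a reverse (REV) one.

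The study compared 5 kinds of mouse cells, with 2 libraries of each kind in each assay. Embryonic stem (ES) cells of the male V6.5 line (129SvJae x C57BL/6) were grown in serum with LIF on inactivated embryonic fibroblast feeders and then on gelatin, or in serum-free medium with LIF and the inhibitors CHIR99021 and PD0325901 (2i). Primary neural progenitor cells (NPC) came from whole brains of postnatal day 1 mice (129SvJae x C57/BL6) that carry Sox2-eGFP, were grown as neurospheres with EGF and FGF and were plated on poly-D-lysine and laminin. Induced pluripotent stem (iPS) cells derived from such NPC carry the same reporter and were grown in serum with LIF on feeders and then on gelatin, or in 2i. The ES line has no reporter and is not the parent of the NPC, so that the cell state and the origin of the cells differ together between ES and NPC. Nothing in the labels says that the 2 libraries of a kind came from separate cultures or animals, so the p-values measure the spread between these libraries, which may be technical.

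The starts of both genes are shown first, because the contacts below were chosen around them and because both RNAs were highest in the same cells. The sequences are the 250 bases before each gene start in RefSeq (build GRCm38.p6), written 5′ to 3′ on the gene's own strand, at chr3:87970843-87971092 on the plus strand for Nes and chr3:88000357-88000606 on the minus strand for Bcan. Capitals mark the motifs CCGCCC (a GC box) and CCAAT.
Nes: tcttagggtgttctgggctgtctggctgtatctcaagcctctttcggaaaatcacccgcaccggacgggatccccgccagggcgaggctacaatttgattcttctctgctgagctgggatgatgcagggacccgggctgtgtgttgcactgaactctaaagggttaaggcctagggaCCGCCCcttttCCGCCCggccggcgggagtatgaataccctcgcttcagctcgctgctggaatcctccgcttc
Bcan: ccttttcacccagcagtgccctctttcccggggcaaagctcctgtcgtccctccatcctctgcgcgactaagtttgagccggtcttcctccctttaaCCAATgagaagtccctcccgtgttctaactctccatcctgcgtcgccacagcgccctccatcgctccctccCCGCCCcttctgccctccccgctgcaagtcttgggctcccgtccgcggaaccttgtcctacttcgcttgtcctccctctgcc
The Nes stretch held CCGCCC at 2 places and the Bcan stretch at 1, and CCAAT was found at 1 place in Bcan and at none in Nes. Over the 32851 promoters of the table, searched on both strands, 32.7% held CCGCCC and 33.8% held CCAAT. Neither stretch held TATAAA (12.4% of promoters), ATTTGCAT (1.60%), ACAAAG (16.5%), ACAATG (10.7%) or AAGCTT (6.22%), the last being the site cut by HindIII, the enzyme used for 5C. Both were richer in G and C than the median promoter of 52.4%, at 58.8% for Nes and 62.0% for Bcan. They held 15 and 16 CG dinucleotides, against a median of 6.

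The count files assigned 1150624 to 17286063 reads to transcript models in each RNA library. Reads that fell in no model made up 26.5% to 86.6% of a library's reads, with 86.6% and 59.3% in NPC against 26.5% and 81.5% in ES. NPC replicate 1 was the shallowest library. The NPC libraries held no read of the 7 measured pluripotency markers of 8 chosen, which together had 6290 to 6627 CPM (counts scaled to the size of the library) in ES. Of 8 progenitor markers 4 were measured (Sox2, Slc1a3, Msi1 and Olig2), and their summed level was 1891 to 2175 CPM in NPC and 512 to 617 CPM in ES. Most of the NPC sum was Olig2, at 1743 CPM, and most of the ES sum was Sox2, at 527 CPM against 249 in NPC. In edgeR 3 of the 4 were higher in NPC than in ES and 1, Sox2, was lower, against 27.3% and 33.7% of all models tested.

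Nes RNA was highest in NPC. Its model, uc008ptl.1 (mm9 chr3:87775015-87777313), had 4 and 14 counts in the 2 NPC libraries, 5 and 0 in ES, 3 and 2 in ES in 2i, 3 and 2 in iPS, and 2 and 5 in iPS in 2i. Relative to library size these were 3.35 and 4.06 CPM in NPC, 0.281 and 0 in ES, 0.188 and 0.130 in ES in 2i, 0.619 and 0.340 in iPS, and 0.410 and 0.507 in iPS in 2i. Both NPC libraries lay above all 8 others. Among those 8, every iPS and iPS in 2i library lay above every ES and ES in 2i library. Each of them had 5 counts or fewer, and in ES replicate 2 even 3 counts would be 0.790 CPM.

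The mean Nes level was 3.70 ± 0.5002 CPM (SD, n = 2) in NPC against 0.140 ± 0.198 in ES. The log2 difference was 3.14, with an adjusted p of 4.92e-05 in edgeR's quasi-likelihood test. Its approximate standard error (SE) of 0.61 was worked back from the difference and the test's F. The prior count of 2 draws edgeR's log2 differences towards 0, most at low counts. Summed counts, which are not drawn in, gave a ratio of 16.7 with a 95% exact interval of 6.0 to 57.7 for counting error. From NPC to iPS, Nes fell by 2.52 (SE 0.65, adjusted p = 0.00171), with summed counts 8.31 times lower (2.97 to 28.6). This call rested on NPC replicate 2: without it the adjusted p was 0.0951. Of all 11031 models tested, 61% differed between NPC and ES (27.3% higher in NPC) and 51.3% between iPS and NPC (22% lower in iPS), so that a call in these comparisons is common.

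Bcan RNA was also highest in NPC. Its model, uc008pto.2 (mm9 chr3:87791453-87804278), had 237 and 980 counts in NPC, 9 and 3 in ES, 1 and 2 in ES in 2i, 1 and 3 in iPS, and 0 and 2 in iPS in 2i. These were 198 and 284 CPM in NPC, 0.505 and 0.790 in ES, 0.0627 and 0.130 in ES in 2i, 0.206 and 0.511 in iPS, and 0 and 0.203 in iPS in 2i. All 8 libraries outside NPC were at or below 0.790 CPM, the level of 3 counts in ES replicate 2.

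The mean Bcan level was 241 ± 60.5 CPM in NPC and 0.648 ± 0.201 in ES (SD, n = 2), a log2 difference of 8.26 (SE 0.28, edgeR adjusted p = 1.34e-21). The ratio of summed counts was 472 (269 to 916). In iPS the level was 0.358 ± 0.215 CPM, and Bcan fell by 8.64 from NPC (SE 0.31, adjusted p = 6.84e-21). Summed counts were 702 times lower there (274 to 2582).

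**Figure D1:**
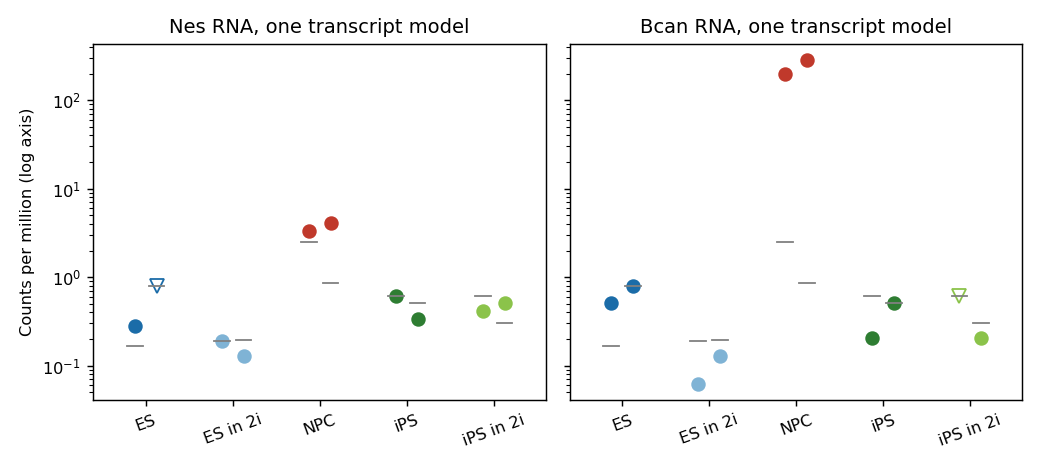
Nes and Bcan RNA in each RNA-seq library, in CPM on a log axis, by kind of cell. Points are libraries, grey ticks give the level of 3 counts in that library, and open triangles at that level are libraries with 0 counts. Both NPC points stand above all others, at 3.35 and 4.06 for Nes and at 198 and 284 for Bcan.

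After reprogramming, neither RNA differed from ES beyond the spread of these low counts. The iPS minus ES difference on the log2 scale was 0.63 for Nes (SE 0.62, adjusted p = 0.417) and -0.39 for Bcan (SE 0.54, adjusted p = 0.575), where edgeR called 52.9% of all models. With 5 against 5 counts for Nes and 4 against 12 for Bcan, the intervals of the ratio were 0.464 to 8.76 and 0.158 to 2.22. For Nes, a level in iPS several times that of ES could not be told from an equal level at this depth.

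In 2i, Bcan fell by 1.25 from ES in serum (SE 0.41, edgeR adjusted p = 0.0228), where 24.5% of models were called. This rested on 3 against 12 counts, a ratio 5.81 times lower with an interval of 1.57 to 32.1. The call was lost without ES replicate 1 (adjusted p = 0.104), ES replicate 2 (0.0510) or ES in 2i replicate 1 (0.1247). It was also lost in a fit of these groups alone (0.109). With a smaller prior count than the 2 used here, a setting added after seeing the data, the fitted difference was -2.37.

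Nes gave -0.20 between ES in 2i and ES (adjusted p = 0.787). Between iPS in 2i and iPS, edgeR gave 0.01 for Nes (adjusted p = 0.996) and -0.71 for Bcan (0.349), with 42.6% of models called. The medium's effect did not differ between iPS and ES past the threshold for either gene, at 0.21 (adjusted p = 0.838) and 0.54 (0.664), with 27.3% of models called. iPS and ES, both in 2i, differed by 0.83 for Nes (adjusted p = 0.242) and 0.16 for Bcan (0.826), with 25.3% called.

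Levels of the 2 genes are not set against each other, because the files do not give the counted length of a model. Reads that fitted several models of a gene were counted for none, so the Nes row is not the whole output of the gene.

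Most other intermediate filament genes went the other way from Nes. Of 16 chosen, 12 were measured. Between ES and NPC Nes and Vim, the vimentin gene whose product forms filaments together with nestin, rose, 9 fell, and Lmnb2 gave 0.06 (edgeR adjusted p = 0.814), where 27.3% and 33.7% of all models rose and fell. Vim went from 731 ± 11.9 CPM in ES to 4883 ± 277 in NPC and 2289 ± 114 in iPS, and its log2 difference was 2.74 between NPC and ES. The neurofilament genes Nefl and Nefh and the related Ina fell in NPC by 2.62, 7.44 and 2.81. The keratin genes Krt8, Krt18 and Krt19, filaments of simple epithelia, had 0 counts in both NPC libraries and 33.3 to 208 CPM in ES. The median over the 12 genes was -2.71, against -0.20 over all models tested. In iPS 10 of the 12 were higher than in NPC, where 29.3% of all models rose, and Nes and Vim were lower.

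Of 12 lecticans and partner proteins, 6 were measured. In NPC 4 rose over ES, where 27.3% of all models did: Bcan, Ncan (neurocan, another brain lectican) by 6.16, Tnc (tenascin C, a matrix glycoprotein that lecticans bind) by 2.49 and Hapln4 (a link protein that joins lecticans to hyaluronan) by 1.44. Ncan had 25.2 ± 0.291 CPM in ES, 1826 ± 180 in NPC and 14.8 ± 0.679 in iPS. Acan, the aggrecan gene of cartilage and perineuronal nets, fell, from 5.57 CPM in ES to 0 counts in both NPC libraries, and the link protein gene Hapln3 gave 0.89 (edgeR adjusted p = 0.0513). The median of the 6 was 1.96. In iPS 5 were lower than in NPC, where 22% of all models were, and Acan was higher.

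Of 20 transcription factors, regulators and markers of neural stem cells, 11 were measured. Of these 9 rose and 2 fell in NPC over ES, against 27.3% and 33.7% of all models. Pou3f3, a neural POU factor, went from 0.704 CPM in ES to 264 in NPC and 1.04 in iPS. Notch1, the receptor that keeps progenitors from differentiating, went from 46.4 to 448 and then 67.3 CPM. Sox2, which pluripotent and neural cells share, fell by 1.08, and Hes1, a Notch target, by 0.50. In iPS 7 of the 11 were lower than in NPC and 3 higher, against 22% and 29.3% of all models. The median was 3.12 between NPC and ES.

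In the libraries where Bcan was high, most measured markers of the oligodendrocyte lineage were higher than in ES. Of 7 chosen, 4 were measured (Olig1, Cspg4, Sox10 and Mbp), with a summed level of 3699 to 4527 CPM in NPC against 22.2 to 27.1 in ES and 27.1 to 28.5 in iPS. In NPC 3 of the 4 rose over ES and 1 fell, where 27.3% and 33.7% of all models did. The 1 that fell was Mbp, from 5.02 CPM in ES to 0.998 in NPC. Nearly all of the NPC sum was Olig1 at 4095 CPM, with Cspg4 at 8.55 and Sox10 at 8.13. Only 1 of 6 astrocyte markers was measured (S100b, 4.64 to 5.86 CPM in NPC), and none of 5 microglial markers. The markers not measured had no model named for them, so their levels were not known. The 5 measured feeder fibroblast markers summed to 62.0 to 80.3 CPM in NPC and 508 to 542 in iPS. The part of these cells in the Nes and Bcan levels was not tested, and in bulk RNA a change in the number of cells of a type cannot be told from a change in RNA per cell.

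The genes most like each member over the 10 libraries were found by the root mean square (RMS) distance between log2 CPM values centred on each gene's own mean, among 9371 symbols. For Nes these were Top2b (RMS 0.286), Fam120c (0.301), Tram1l1 (0.349), Zdhhc9 (0.370) and Lix1l (0.372). Top2b, which encodes DNA topoisomerase II beta, had a mean of 6.39 CPM in ES and 74.9 in NPC. For Bcan they were Apln (0.387), Sox8 (0.565), Nptx1 (0.582), Olig1 (0.617) and Ptn (0.683). Apln encodes the peptide hormone apelin and had 3.20 CPM in ES and 1100.5 in NPC, and Sox8 encodes a SOX factor of glia and had 2.30 and 401 CPM. All 10 were chosen for this likeness, so their levels add no support to it.

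The 5C region around the genes spans 1.10 Mb (mm9 chr3:87282064-88377995), and 25 models of 21 other genes in it were tested, of which 4 rose and 11 fell in NPC over ES, where 27.3% and 33.7% of all models did. Within 100 kb of either gene lay 10 tested models of 8 genes: Prcc, Hdgf, Mrpl24, BC023814, Isg20l2, Crabp2, Apoa1bp and Iqgap3. Of these 1 rose, that of Apoa1bp, by 1.78 (67.4 CPM in ES, 228 in NPC and 107 in iPS). Another 4 fell, those of Crabp2, a carrier of retinoic acid, by 5.26, Hdgf, a growth factor gene, by 1.18, Isg20l2, an exonuclease gene, by 1.09 and a long model of Iqgap3, a scaffold protein gene, by 0.32.

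Crabp2, whose model is the nearest below that of Nes, took the opposite course to Nes, with 17.1 CPM in ES, 0.419 in NPC and 363 in iPS. Of the 10 nearby models 5 were higher in iPS than in NPC and 1, that of Apoa1bp, was lower, by -1.10, where 29.3% and 22% of all models were higher and lower. Gpatch4, also within 100 kb, was too low to be tested.

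The 5C libraries held 10508118 to 26533530 read pairs, of which 80.6% to 91.8% joined fragments within a region. The 20 kb around the Nes start fell inside a single fragment, REV_140 (mm9 chr3:87759491-87793437), which at 33947 bp is the longest of the region's 205 fragments and also holds the 3′ end of the Bcan model. All Nes contacts therefore share 1 primer and cannot be placed more closely than this fragment. The Bcan window covered 6 fragments, FOR_141, REV_142, REV_143, FOR_144, REV_145 and FOR_146, of which REV_143 (chr3:87798418-87804589) holds the 5′ end of the Bcan model. Contacts are given as observed over expected (O/E), the count divided by the mean count of all pairs of the same library, region and distance class.

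The Nes fragment made more contacts in NPC than in any other kind of cell. Its summed O/E over 101 pairs was 1.69 and 1.55 in NPC, 0.863 and 0.801 in ES, 1.13 and 1.25 in ES in 2i, 0.982 and 1.12 in iPS, and 1.11 and 0.986 in iPS in 2i. The 2 NPC libraries lay above the 8 others and the 2 ES libraries below them. The total rose between ES and NPC by 0.96 on the log2 scale (SE 0.12, edgeR adjusted p = 0.000278) and fell from NPC to iPS by 0.62 (SE 0.12, adjusted p = 0.00770). Over all 1547 fragments tested, 44% and 20.7% were called in these comparisons, and in its own region the Nes fragment ranked 14 from the highest of 203 between NPC and ES.

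The Nes total was also higher in ES in 2i than in ES, by 0.51 (adjusted p = 0.0100, with 35.6% of fragments called). iPS and ES differed by 0.34 (adjusted p = 0.0692, 24.3% called). Among these calls 2 depended on single libraries. The fall to iPS had an adjusted p of 0.0644 without iPS replicate 1, and the 2i difference 0.0927 without ES replicate 2 and 0.0561 without ES in 2i replicate 2. The medium's effect in iPS minus that in ES was -0.52, short of the threshold (adjusted p = 0.0591, 19.2% called).

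Among the Bcan fragments REV_143, with the Bcan start, had an O/E of 0.396 and 0.400 in ES, 0.610 and 0.351 in NPC, and 0.305 and 0.561 in iPS, so that the NPC and the iPS libraries each differed between themselves by more than their means differed from ES. Of the 6 totals, none passed the threshold between NPC and ES in edgeR's test, and 2 had an unadjusted p under 0.05, FOR_141 (0.0436) and FOR_144 (0.0261). FOR_141 fell by 0.35 in iPS against NPC (adjusted p = 0.0446). REV_145, which made few contacts in every library (O/E 0.115 to 0.400), fell by 1.37 in ES in 2i against ES (adjusted p = 0.00262) and fell by 0.95 in iPS against ES (adjusted p = 0.0197). The FOR_141 call was lost without any 1 of the ES, NPC or iPS libraries (adjusted p = 0.0701 to 0.201) and without distance classes (0.246). The REV_145 call between iPS and ES was lost without any 1 of the ES or iPS libraries (0.0542 to 0.141). FOR_144 passed between NPC and ES when 1 iPS or iPS in 2i library was left out (0.0294 to 0.0437).

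**Figure D2:**
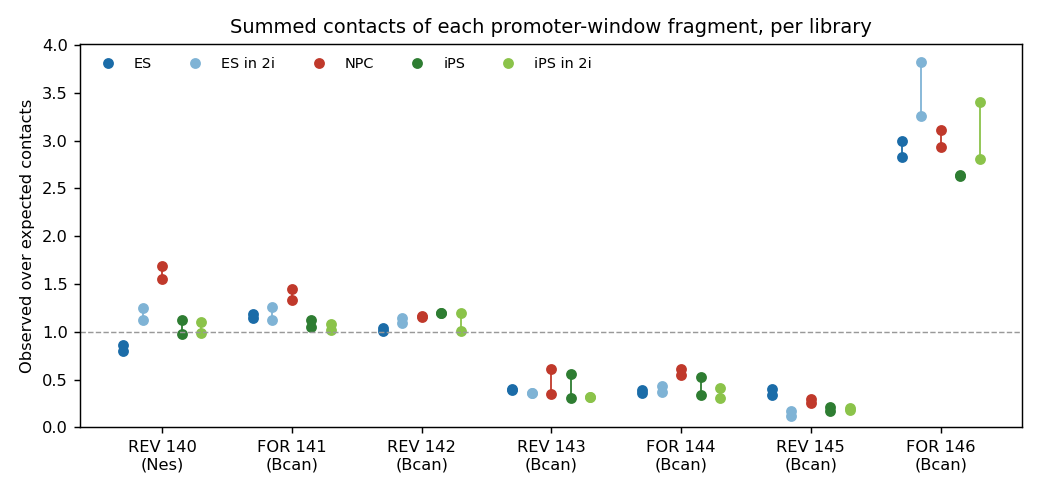
Observed over expected contacts, summed over all pairs, of the Nes fragment and the 6 Bcan fragments in each 5C library. Points joined by a line are the 2 libraries of a kind, and the dashed line marks 1. REV 140 reached 1.69 and 1.55 in NPC, while REV 143, with the Bcan start, ran from 0.351 to 0.610 within NPC.

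Pair by pair, the Nes contacts that differed between ES and NPC were all higher in NPC. Of the 101 Nes pairs 94 had enough counts, a mean of 10, and 38 of these were higher and 0 lower in NPC at an adjusted p of 0.05 in edgeR. Over all 75889 pairs tested 8.52% were higher and 9.31% lower, 17.8% in all. From NPC to iPS 19 Nes pairs were lower and 0 higher, where over all pairs 1.99% were lower and 4.91% higher (6.91% in all). The median log2 difference over the 94 pairs was 0.94 and -0.53 in these 2 comparisons, against -0.01 and 0.16 over all pairs. Both use the same NPC libraries, so the second is not independent of the first.

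The number of Nes calls depended on the libraries and on what contacts were measured against. Without ES replicate 2, 21 pairs were called between NPC and ES, and between iPS and NPC 10 were called without NPC replicate 1 and 5 without iPS replicate 1. Without distance classes the calls were 31 higher and 4 lower in NPC, and 5 higher and 11 lower in iPS. When the totals of both fragments were taken out, a setting added after seeing the data, 12 pairs were higher and 16 lower in NPC, and 10 higher and 6 lower in iPS. All Nes pairs share REV_140, so this setting centres them near 0 by construction (median -0.10), and the balance of the calls shows nothing about the number of higher contacts. By side, the calls in NPC over ES were 11 higher and 2 lower towards higher coordinates, and 1 higher and 14 lower towards lower coordinates.

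The higher contacts in NPC lay mostly on the side of higher coordinates, where the genes Bcan, Apoa1bp, Iqgap3, Cct3, Lmna and Ubqln4 lie. The 2 sides were split after seeing the data. Summed O/E of the Nes fragment on the higher side was 3.06 and 2.77 in NPC against 1.29 and 1.17 in ES, 1.68 and 1.79 in ES in 2i, 1.41 and 1.61 in iPS, and 1.64 and 1.41 in iPS in 2i. On the lower side, towards Crabp2, Hdgf, Prcc and Arhgef11, it was 0.651 and 0.628 in NPC, 0.515 and 0.490 in ES, and 0.614 and 0.698 in iPS. Of the 50 higher-side pairs tested 34 were higher in NPC than in ES (median 1.49), and of the 44 lower-side pairs 4 (median 0.47). In iPS against NPC 18 of the 50 and 1 of the 44 fell.

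A difference in the total of the Nes fragment cancels in the ratio of the 2 sides. Higher-side over lower-side O/E was 4.71 and 4.41 in NPC, and between 2.22 and 2.51 in all 8 other libraries. Its log2 difference was 0.90 between NPC and ES, -0.98 between iPS and NPC, -0.09 between iPS and ES and -0.05 between ES in 2i and ES. With 2 against 2 libraries the smallest p an exact permutation test can give is 0.333, so the ratio was not tested. Among the 160 fragments of the region with enough pairs on each side, the Nes fragment ranked 4 from the highest in the NPC minus ES difference, and the median over the 160 was -0.07.

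The fragment with the largest such shift was REV_135, 25.03 kb from the Nes fragment, middle to middle, towards lower coordinates. Its ratio was 4.79 and 6.11 in NPC and 2.37 and 2.21 in ES. Between REV_135 and the Nes fragment lie FOR_136, REV_137 and FOR_139. Their NPC ratios were 0.858 and 0.880 for FOR_136, 2.02 and 1.97 for REV_137, and 0.718 and 0.540 for FOR_139. In ES they were 0.934 and 0.949, 1.82 and 1.79, and 0.558 and 0.715. The shift thus differed between neighbouring fragments.

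Of the 6 Bcan fragments, FOR_146 was the only one with both NPC ratios above both ES ratios. The ratio of the whole window was 2.74 and 2.84 in NPC, 2.01 and 1.98 in ES, and 1.77 to 2.07 in the 6 other libraries. FOR_146, the window's fragment farthest from Nes, had 4.28 and 4.65 in NPC against 3.00 and 2.95 in ES and 2.37 and 2.21 in iPS. REV_143, which holds the Bcan start, had 1.58 and 1.66 in NPC, 1.60 and 1.55 in ES, and 1.83 and 1.75 in iPS. These NPC and ES values overlapped, and a link of this ratio to Bcan RNA was not tested.

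**Figure D3:**
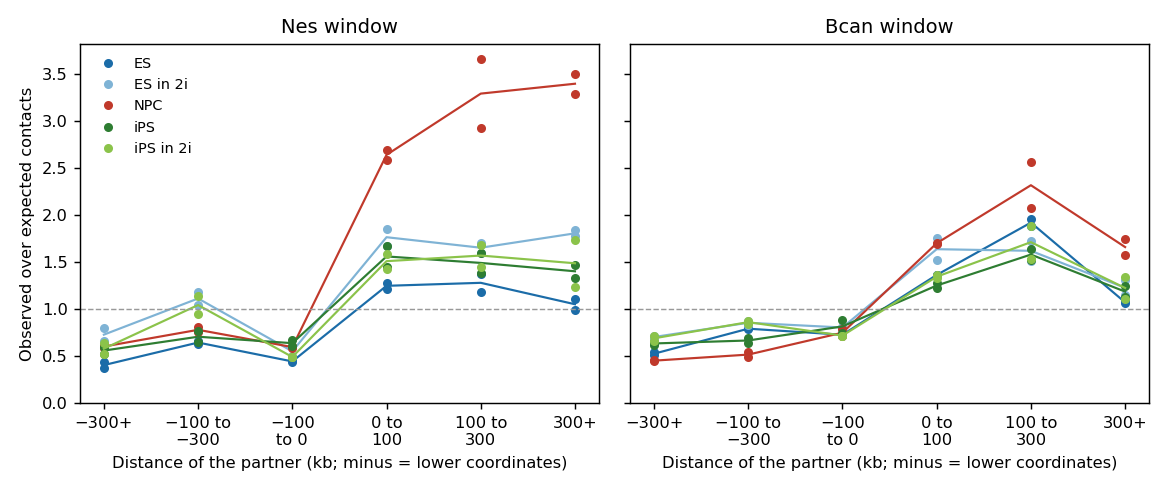
Observed over expected contacts of the Nes and Bcan windows towards lower and higher coordinates, in 3 distance classes, in each 5C library. Points are libraries, coloured by kind of cell. On the higher side the NPC libraries stand apart from the others for Nes, at 3.51 and 3.29 beyond 300 kb against 1.11 and 0.995 in ES.

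Of the 606 Bcan pairs 516 were tested, and 57 were higher and 32 lower in NPC than in ES. The 17.2% called was near the 17.8% over all pairs, of which 8.52% were higher and 9.31% lower. By side of the window, 43 higher and 6 lower calls lay among 285 pairs towards higher coordinates (median 0.45), and 14 higher and 26 lower calls among 231 pairs towards lower coordinates (median -0.29). At 100 to 300 kb on the lower side 19 of 109 pairs were lower and 0 higher in NPC (median -0.66). In iPS against NPC 13 Bcan pairs were higher and 27 lower. The 7.75% called was near the 6.91% over all pairs, of which 4.91% were higher and 1.99% lower. Of the 27 lower pairs 26 lay on the higher side.

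For the 5′ end fragment alone, REV_143, 7 pairs were called between NPC and ES in place of 89, and 5 between iPS and NPC in place of 40. Leaving out ES replicate 1 or 2 left 52 or 39 calls between NPC and ES, and leaving out NPC replicate 1 or iPS replicate 1 left 20 or 8 between iPS and NPC. Without distance classes the calls were 23 higher and 87 lower in NPC than in ES, and 95 higher and 16 lower in iPS than in NPC. With fragment totals taken out they were 36 and 41, and 44 and 29. The direction of most Bcan calls thus changed with the scaling. Their split by side was kept with fragment totals taken out. The higher side then had 29 higher and 9 lower calls in NPC over ES, and the lower side 7 and 32. Calls without distance classes were not counted by side.

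The Nes and Bcan windows met more often in NPC. There are 3 pairs that join them, because only the FOR fragments of the Bcan window can pair with REV_140. Their summed O/E was 2.67 and 2.75 in NPC, 1.44 and 1.45 in ES, 1.92 and 2.103 in ES in 2i, 1.42 and 1.71 in iPS, and 1.62 and 1.55 in iPS in 2i. The NPC libraries were above all others, and iPS and ES overlapped. The log2 difference of this sum between NPC and ES was 0.91. It was 0.96 over all pairs of the Nes fragment and 1.08 over its higher-side pairs under 100 kb. The sum with Bcan thus rose no more than the other contacts of the Nes fragment.

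The pair with FOR_144, which begins just beyond the Bcan start fragment and lies 28.5 kb from the Nes fragment, differed most. Scaled to a common library it had 1008 and 986 counts in NPC, 205 and 156 in ES, 223 and 327 in ES in 2i, 195 and 312 in iPS, and 213 and 247 in iPS in 2i. It rose in NPC over ES by 2.45 (SE 0.32, edgeR adjusted p = 2.83e-05) and fell in iPS by 1.97 (SE 0.32, adjusted p = 0.000691). The pair with FOR_146, 37.8 kb away, had 3624 and 3393 scaled counts in NPC, 1252 and 1186 in ES, 2222 and 2287 in ES in 2i, and 1305 and 1546 in iPS. It rose by 1.52 (adjusted p = 0.00018) and fell by 1.30 (adjusted p = 0.00197), and was higher in ES in 2i than in ES by 0.89 (adjusted p = 0.0183). The nearest pair, with FOR_141 at 18.1 kb, gave 0.51 (adjusted p = 0.116) and -0.65 (adjusted p = 0.0826). The totals of the 2 fragments of the FOR_144 pair differed by less than the pair, by 0.96 for REV_140 and by 0.60 for FOR_144 (adjusted p = 0.0564).

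**Figure D4:**
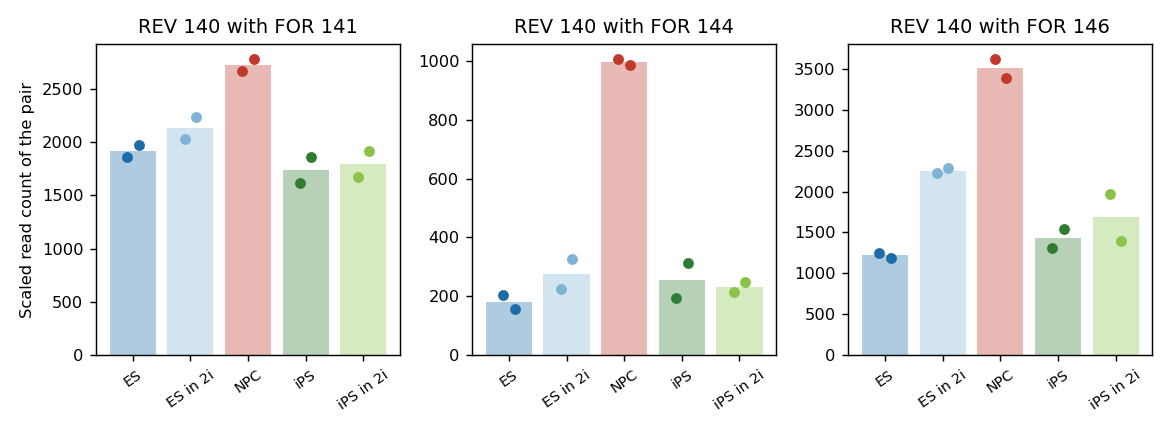
Scaled 5C counts of the 3 pairs that join the Nes fragment with fragments of the Bcan window, in each library. Points are libraries, bars are the means of each kind, and each panel has its own linear axis. The FOR 144 pair had 1008 and 986 in NPC and 156 to 327 in the 8 other libraries.

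The authors' table of binned contacts is a second reading of the same libraries. It gave the same directions for the Nes and Bcan contact in NPC against ES and in iPS against NPC. Between the 20 kb bins centred nearest to the 2 starts, 28 kb apart, the deposited log2 value was 10.7 ± 0.127 in NPC, 9.47 ± 0.257 in ES and 9.33 ± 0.310 in iPS (SD, n = 2). In limma the NPC minus ES difference was 1.28 (adjusted p = 0.00021) and the iPS minus NPC difference -1.42 (adjusted p = 0.000184). Of 230 pairs of the Nes bin 143 were higher and 0 lower in NPC than in ES, against 9.75% and 23.3% of all bin pairs (33% called), and 112 were lower and 0 higher in iPS than in NPC (7.93% and 15.4%). For the Bcan bin 58 of 214 were higher and 33 lower in NPC, and 15 higher and 64 lower in iPS. With bins centred per library and distance these were 90 and 22, and 2 and 89. The mean value of the Bcan bin was lower in NPC than in ES, at 6.80 ± 0.173 against 7.18 ± 0.0220 (SD, n = 2), while the summed O/E of the Bcan window was higher, at 1.31 ± 0.0638 against 1.13 ± 0.0124.

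In the authors' deposited table of contact classes, 71 of the 116 classified pairs of the Nes bin (61.2%) were called specific to NPC and the other 45 background. These were 66 of 66 pairs towards higher coordinates and 5 of 50 towards lower ones. For the Bcan bin they were 19 of 53 pairs (35.8%), 17 of 18 on the higher and 2 of 35 on the lower side. Over the whole region 17.0% of classified pairs were in that class, and over all regions 14.8%. The classes were drawn from these same ES, NPC and iPS libraries and overlapping bins share reads, so they are no independent evidence.

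Nes contacts with 3 farther gene starts on the higher side, named after their values were seen, were higher in NPC than in all other libraries. Summed over 20 kb windows, the O/E with the start of Lmna, the lamin A/C gene, was 5.26 and 4.69 in NPC, 1.52 and 1.31 in ES and 1.67 and 1.70 in iPS. With Cct3, a chaperonin subunit gene, it was 6.09 and 6.17 in NPC, 1.65 and 1.29 in ES, 4.01 and 3.09 in ES in 2i, and 2.00 and 2.83 in iPS. A single pair with Ubqln4, a ubiquilin gene, which also lies in the windows of Robld3 and Rab25, gave 10.8 and 9.32 in NPC against 2.42 and 1.36 in ES. In RNA these 3 genes were lower in NPC than in ES. Lmna fell by 1.16, Cct3 by 1.43 and the longer model of Ubqln4 by 0.65. Of the genes sharing the Ubqln4 pair, Rab25 fell by 4.06 and Robld3 gave -0.08 (edgeR adjusted p = 0.792). Mex3a, also on the higher side, rose in RNA by 0.36 (adjusted p = 0.0237). Its Nes O/E was 3.93 and 2.68 in NPC and 0.554 to 1.70 in the other libraries. A link of these contacts to RNA was not tested.

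The NPC minus ES difference in log2 O/E ran from 0.78 (Mrpl24) to 1.25 (Prcc) over 6 gene starts on the lower side. Over 14 on the higher side, some of which share pairs, it ran from 0.74 (Mef2d) to 2.41 (Ubqln4), so that the 2 ranges overlapped. With the start of Hdgf the O/E was 1.74 and 1.58 in NPC and 0.789 and 0.681 in ES, and with Prcc 1.08 and 1.06 against 0.417 and 0.482. With Arhgef11, which encodes a RhoA exchange factor, it was 0.372 and 0.656 against 0.318 and 0.240. For Apoa1bp, the nearby gene whose RNA also rose, the Nes O/E was 2.32 and 2.097 in NPC and 0.933 and 0.693 in ES.

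Single pairs of Nes with the largest rise in NPC were those with FOR_252 in Lmna, 522 kb away (2.69, SE 0.63, edgeR adjusted p = 0.00513), FOR_242, 470 kb away, which overlaps no named model (2.50), and FOR_144 (2.45). The FOR_252 pair had 49 and 62 counts in NPC and 17 and 10 in ES. The largest falls to iPS were those with FOR_188, 246 kb away and outside named models (-2.80), FOR_268 in Robld3 and Ubqln4 (-2.33) and FOR_266 in Mex3a and Rab25 (-2.24). FOR_188 had 308 and 312 counts with Nes in NPC and 55 and 82 in iPS, and its own total was high in NPC, at an O/E of 0.823 and 0.851 against 0.231 and 0.325 in iPS. The part of that total in the pair was not tested.

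Fragment FOR_188 was also among the partners that the Bcan window lost in iPS. With REV_145 it had 26 and 15 counts in NPC and 2 and 1 in iPS (-3.28, SE 0.76). With REV_143 it had 107 and 74 counts in NPC and 26 and 38 in iPS (-2.19, SE 0.47). FOR_144 with REV_195 in Rhbg, an ammonium transporter gene, fell by 2.15 (SE 0.43). On the lower side REV_142 with FOR_70 in Arhgef11 went the other way, with 98 and 70 counts in ES, 7 and 5 in NPC, and 83 and 73 in iPS. It fell by 2.59 (SE 0.51) in NPC and was higher by 2.81 (SE 0.51) in iPS than in NPC.

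The largest Bcan differences against ES involved REV_48 in Arhgef11. Its pair with FOR_146 had 1 and 3 counts in ES, 23 and 11 in NPC and 60 and 59 in iPS, and that with FOR_141 had 1 and 0 counts in ES. The total of REV_48 itself moved with them, at an O/E of 0.00782 and 0.0105 in ES and 0.200 to 0.427 in the 8 other libraries, and its part in these pairs was not tested.

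Between iPS and ES 3.19% of Nes pairs and 3.68% of Bcan pairs were called, near the 5.19% over all pairs. In simulated libraries with few pairs changed, the pair test recovered 1.49% of 2-fold and 32.8% of 4-fold differences. Pairs that were not called may therefore still differ. Nes had 3 higher and 0 lower pairs, with FOR_242 (1.60), FOR_136 (1.35) and FOR_139 (1.15), where 3.72% and 1.47% of all pairs were higher and lower (5.19% called). FOR_139 adjoins the lower end of the Nes fragment, and FOR_136 lies just beyond it. Bcan had 10 higher and 9 lower of 516. When single libraries were left out the calls numbered 0 to 3 for Nes and 4 to 24 for Bcan. Without distance classes Bcan had 18 higher and 6 lower.

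Nes contacts were also higher in ES in 2i. Against ES in serum 13 Nes pairs were higher and 0 lower, with 6.53% and 5.27% over all pairs (11.8% called), led by FOR_242 (2.20), FOR_229 (1.93) and FOR_206 in Cct3 (1.40). FOR_242 had a total O/E of 3.55 and 2.67 in ES in 2i against 1.56 and 1.496 in ES. The ratio of higher to lower side was 2.48 and 2.25, against 2.51 and 2.39 in ES. Leaving out any of the 4 libraries left 1 to 4 calls. Bcan had 26 higher and 34 lower pairs. Of the 34 lower, 26 were pairs of REV_145, which had none higher among 64 tested, so that the other Bcan fragments had more higher than lower calls. The calls numbered 17 to 38 in all when a library of the 4 was left out.

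Between iPS in 2i and iPS edgeR called none of the 94 Nes or 516 Bcan pairs, with 6 and 25 at an unadjusted p under 0.05 and 0.0514% of all pairs called, and DESeq2 called 0 and 2. Between iPS and ES in 2i it called none either, with 2 and 23 at an unadjusted p under 0.05 and 0% of all pairs called, and DESeq2 called none. Here too, pairs that were not called may still differ. The effect of 2i differed between iPS and ES for 1 Nes pair and 7 Bcan pairs, where 1.96% of all pairs were called.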

How the data were processed

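RNA-seq and 5C libraries of 5 kinds of cells were analysed, with 2 libraries of each kind in each assay. RNA counts per UCSC transcript model were deposited by the authors, from stranded, ribosomal RNA-depleted total RNA per the labels' protocols. The submitters' processing notes name TopHat, TopHat2 2.1.0, HTSeq, Bowtie and build mm9, without their settings. Lines of the count files that name no model (no feature 26.5% to 86.6% of reads, ambiguous 6.0% to 35.6%) were kept out of library sizes. 5C counts per pair of primers were deposited by the authors as whole numbers. The authors' deposited table of binned contacts holds values on a log scale, read here as log2, over 20 kb bins in 4 kb steps, quantile normalized per the file headers. From the authors' deposited log2 expression table only gene names and coordinates were taken.

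Counts were tested with edgeR 4.0.16 (quasi-likelihood, TMM for RNA, prior count 2) in R 4.3.3 over all 10 libraries of an assay, with Benjamini-Hochberg adjustment over all features tested and a threshold of 0.05. For RNA these were 11031 models that passed edgeR's filter on low counts. 5C pairs needed a mean of at least 10 counts (75889 of 96467 with any count), and the offset was the total of the library, region and 1 of 20 distance strata. Bins were tested with limma 3.58.1. Scripts were tested on simulated data. Each SE is approximate, the size of edgeR's log2 difference over the square root of F. Intervals and floors cover counting error only. Members and lists were chosen with earlier results of these data known. Single pairs are named by rule, up to 3 called pairs per window, comparison and direction with the largest fold, and neighbours where they lie within 100 kb of either gene. Fragment totals, the offset with fragment totals, the split by side, the side ratio and the smaller prior count were added after seeing the data. Alternatives were DESeq2 1.42.0, other scalings and filters, the groups compared alone, a replicate block and leaving out each library. Promoters were matched by symbol for 2 of 2 genes in the RefSeq table.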

Additional observations from a re-analysis of the deposited data

Results flagged for a closer look

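The effect of 2i on contacts differed between iPS and ES in edgeR's interaction test for 1 pair of Nes and 7 pairs of Bcan. These were 1.06% and 1.36% of the pairs tested, below the 1.96% called over all pairs. The total of 1 Bcan fragment also differed, where 19.2% of all fragment totals were called. The Nes pair was REV_140 with FOR_242, with 38 and 35 counts in ES, 133 and 124 in ES in 2i, 80 and 127 in iPS and 73 and 60 in iPS in 2i, a difference of effects of -2.21 on the log2 scale (SE 0.53, adjusted p = 0.0342). FOR_146 gave -4.14 with REV_48, -2.70 with REV_31 and -1.75 with REV_246, and FOR_141 gave -3.36 with REV_48. In these pairs the ES libraries were the lowest of the 8, and REV_48 and REV_31 made few contacts with any partner in ES, at a total O/E of 0.00782 and 0.0105 for REV_48 and 0.179 and 0.232 for REV_31. The part of these totals in the pairs was not tested.

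REV_145 gave 4.16 with FOR_161, 3.59 with FOR_196 and 4.36 with FOR_257, and its own total gave 1.38 (SE 0.34, adjusted p = 0.0245), which was lost without ES replicate 1 (0.0724) or ES replicate 2 (0.102). Its counts with FOR_257 were 78 and 54 in ES, 3 and 5 in ES in 2i, 6 and 6 in iPS and 12 and 12 in iPS in 2i. Its total O/E was 0.343 and 0.400 in ES and 0.115 to 0.215 in the 6 other pluripotent libraries, so that ES in serum stood apart and iPS in serum did not.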

How the results depend on the processing

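The RNA differences of Nes and Bcan between NPC and ES kept their direction and their call in every alternative run. Nes between iPS and NPC ran from -2.79 to -2.25 when single libraries were left out, and Bcan between ES in 2i and ES from -1.52 to -1.07, and -1.56 (adjusted p = 0.109) in a fit of the groups compared. Counts of called 5C pairs moved more.

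Left-out libraries gave 21 to 39 called Nes pairs for NPC against ES, 5 to 18 for iPS against NPC, 0 to 3 for iPS against ES and 1 to 15 for ES in 2i against ES. For Bcan they gave 39 to 90, 8 to 39, 4 to 24 and 17 to 65. Bins of Nes gave 113 to 147, 57 to 115, 0 to 20 and 26 to 105, and bins of Bcan 51 to 94, 31 to 83, 0 to 10 and 7 to 35. The Nes fragment's total ran from -0.72 to -0.53 for iPS against NPC and from 0.44 to 0.58 for ES in 2i against ES, and without distance strata gave 0.42 for iPS against ES, past the threshold.

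For iPS against ES, 3 Nes pairs became 6 without distance strata, 6 in DESeq2 and 0 with fragment totals in the offset, and 18 Nes bins and 8 Bcan bins became 9 and 3 in limma without a trend. For Bcan 19 became 33 in DESeq2, 0 with fragment totals and 0 with the 5′ fragment alone. For iPS against NPC the 40 Bcan pairs became 111 without strata, 73 with fragment totals, 61 in DESeq2 and 5 with the 5′ fragment alone. That fragment alone gave 7 for NPC against ES and 1 for ES in 2i against ES, where fragment totals gave 1 for Bcan and 0 for Nes. Fewer pairs are tested for the 5′ fragment. Fragment totals centre the Nes pairs by construction. The other causes were not tested.

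With 5 kb windows the Nes and Bcan sums, as log2 of O/E, gave 1.69 in place of 0.91, -1.42 in place of -0.79 and 0.85 in place of 0.48 in NPC against ES, iPS against NPC and ES in 2i against ES. They reversed for Nes with Pmf1 (ES in 2i against ES, -0.15) and Lmna (iPS against ES, -0.31), and for Bcan with Etv3 (iPS against NPC, -2.08), Apoa1bp (NPC against ES, -0.0745) and Iqgap3 (NPC against ES, -0.33). The cause was not tested.

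Libraries of the same number did not deviate together in every pair of kinds (r from -0.08 to 0.07 for RNA and -0.04 to 0.17 for 5C). The numbers were therefore not used as a pairing. In 5C 2 of the 10 pairs of kinds had an r over 0.1, and whether libraries of the same number share a batch was not tested. With the replicate block, called Nes pairs were 41, 22, 5 and 16 and Bcan pairs 103, 51, 25 and 70 in the same order of comparisons, all more than without it. Depth limits RNA of both genes outside NPC, where no library had over 9 counts, and NPC replicate 1 had 4 of Nes.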
